A study of Mus musculus with 6 samples.

Results

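The salt-inducible kinases Sik1, Sik2 and Sik3 were examined in primary mouse hippocampal neurons given forskolin. They were taken by gene symbol from the deposited count table, which held 1 row for each: 3 of 37411 gene rows. All 3 passed the filter on low counts, as did 16233 genes in total. Cultures came from newborn (P0) pups of CD-1 IGS mice, an outbred strain, and were used after 16 days in vitro. Forskolin is a diterpene of plant origin that switches on adenylyl cyclase, the enzyme that makes cyclic AMP (cAMP). Its dose was 50 µM for 30 min in 3 cultures (libraries 4, 5 and 6). The 3 control cultures (libraries 1, 2 and 3) received dimethyl sulfoxide (DMSO), the solvent, over the same time. The labels do not say whether the libraries came from separate preparations or litters, so p-values measure the spread between these libraries, which may in part be technical.

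Salt-inducible kinases are serine/threonine kinases of the AMPK-related family. The tumour suppressor kinase LKB1 activates them by phosphorylating their activation loop. Active kinases phosphorylate the CRTC coactivators of the transcription factor CREB and the class IIa histone deacetylases (HDACs), which are then held in the cytoplasm by 14-3-3 proteins. When cAMP rises, protein kinase A (PKA) phosphorylates the salt-inducible kinases and restrains them, so that CRTC proteins enter the nucleus and CREB target genes are transcribed. Sik1 is itself known as a CREB target gene and as an immediate early gene, whereas Sik2 and Sik3 are known mainly for regulation of the protein. In neurons the family has been linked to dendrite growth, activity-driven transcription and sleep.

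The 3 genes lie on 2 chromosomes of the GRCm38 assembly, the build named in the submitters' processing notes, with positions from the GENCODE M21 annotation. Sik1 occupies chr17:31844250-31855804 on the minus strand, a compact locus of 11555 bases with 1 protein-coding transcript of 4521 bases. Sik2 occupies chr9:50892801-51009073 on the minus strand, and its longest transcript has 5369 bases. Sik3 occupies chr9:46012820-46224194 on the plus strand, a span of 211375 bases with a longest transcript of 6287 bases. No other annotated gene overlaps Sik1 or Sik3. Sik2 overlaps Ppp2r1b, a gene on the opposite strand that encodes a scaffold subunit of protein phosphatase 2A, and 1429 of 9539 exon bases of Sik2 are also exon bases of Ppp2r1b. Whether counting used strand is not given in the sources used here, so part of the Sik2 count cannot be told apart from Ppp2r1b.

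CREB binds the cAMP response element, whose full form is the palindrome TGACGTCA. Its half-site is TGACG, which reads as CGTCA on the opposite strand. Promoter sequences of Sik2 and Sik3 are shown because they hold half-sites, although neither gene's counts passed the test below. They come from RefSeq (GRCm38.p6), begin 250 bases before the transcription start, stop 30 bases after it and read 5′ to 3′ along the gene, with every TGACG or CGTCA in capitals. The Sik2 stretch is chr9:51009044-51009323 (minus strand) and the Sik3 stretch is chr9:46012570-46012849 (plus strand).
Sik2: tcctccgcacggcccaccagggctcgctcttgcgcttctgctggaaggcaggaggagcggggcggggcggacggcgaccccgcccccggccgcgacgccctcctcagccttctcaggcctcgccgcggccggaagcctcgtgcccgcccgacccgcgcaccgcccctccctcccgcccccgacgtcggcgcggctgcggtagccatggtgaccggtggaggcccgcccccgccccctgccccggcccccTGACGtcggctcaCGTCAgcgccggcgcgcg
Sik3: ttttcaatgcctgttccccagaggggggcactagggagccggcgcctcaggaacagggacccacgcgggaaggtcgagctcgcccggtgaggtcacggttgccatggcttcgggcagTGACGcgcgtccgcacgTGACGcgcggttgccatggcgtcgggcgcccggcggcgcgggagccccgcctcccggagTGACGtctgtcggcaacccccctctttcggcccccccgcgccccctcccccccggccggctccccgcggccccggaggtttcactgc

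In Sik2 the half-sites begin 1 base before and 12 bases after the start, counting the start as 0. In Sik3 they begin 133, 116 and 57 bases before it. Both promoters hold 1 copy of the longer 7-base form TGACGTC, and neither holds the full palindrome in the 300 bases searched, which run to 50 bases after the start. Among 32851 RefSeq promoters of that length, 20.8% hold TGACG or CGTCA on the printed strand, 3.21% hold TGACGTC or its reverse complement and 1.79% hold TGACGTCA. These motifs overlap, since each longer one contains the half-site. Half-sites at 3 or more places, as in Sik3, were found in 1.03% of promoters. A match in these letters is a description of the window and says nothing of binding. The promoter of Sik1 was not analysed here.

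The libraries held 28342764 to 47548379 counts each. At the smallest member count, 548, counting error alone is 4.27% of the value, well under the spread between forskolin libraries for Sik1. By the quasi-likelihood test of edgeR, 245 of 16233 genes (1.51%) passed an adjusted p-value of 0.05 (Benjamini-Hochberg over all genes), of which 28 (0.172%) were higher and 217 (1.34%) lower with forskolin. Forskolin library 6 stood apart from libraries 4 and 5, and results are therefore given with and without it: without it edgeR called 5698 of 16941 genes (33.6%). Leaving out any of the other 5 libraries gave no edgeR call, while 1945 to 3216 genes had an unadjusted p-value under 0.05. Markers of other cells differed in the same libraries. The 12 microglia markers summed to 6.79 to 13.2 CPM (counts per 1000000, with library sizes scaled by the TMM factors of edgeR) in the DMSO libraries and to 197, 366 and 9.17 CPM in libraries 4, 5 and 6. The 14 neuron markers summed to 4917 to 6232 CPM with DMSO and to 3634, 3877 and 5862 CPM in libraries 4, 5 and 6, so the labelled cell type was present in every library. The 12 astrocyte markers summed to 8832 to 9373 CPM with DMSO and 8652 to 9578 CPM with forskolin, and the 12 oligodendrocyte lineage markers to 836 to 936 and 652 to 1624 CPM. No marker of the 4 lists was at 0 in any library. EdgeR on 6 libraries called 1 of these markers, Rbfox3, which encodes the neuronal nuclear protein NeuN and was lower (log2 fold change -0.87, adjusted p = 0.0392). Of 11 tested microglia markers, 10 had an unadjusted edgeR p-value under 0.05, against 22.3% of all tested genes. DESeq2 called the same number of these markers higher (median edgeR log2 fold change 4.53). DESeq2 called 4 neuron markers lower, 1 astrocyte marker higher and 1 lower, and 4 oligodendrocyte lineage markers higher and 2 lower, where it called 4.90% of all genes higher and 6.03% lower. In such mixed cultures, fewer cells of a type and less RNA per cell cannot be told apart.

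Sik1 was the member with the largest fitted change and was higher in every forskolin library than in any control. The controls, libraries 1 to 3, held 566, 563 and 548 Sik1 counts, and forskolin libraries 4 to 6 held 2906, 1984 and 822. Scaled to library size, these were 17.7, 18.5 and 15.4 CPM with DMSO and 61.7, 58.3 and 24.5 CPM with forskolin. Every forskolin library thus lay above every DMSO library, with libraries 4 and 5 close together and library 6 much nearer to the controls. Group means were 17.2 ± 1.61 and 48.2 ± 20.5 CPM (SD, n = 3), a ratio of 2.81. The edgeR log2 fold change was 1.49 ± 0.34 (SE; 95% interval 0.69 to 2.29), with an unadjusted p-value of 0.00326 and an adjusted p-value of 0.0876, so that Sik1 was not among the 245 calls. Of all tested genes, 10.3% also had every forskolin library above every DMSO library.

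**Figure D1:**
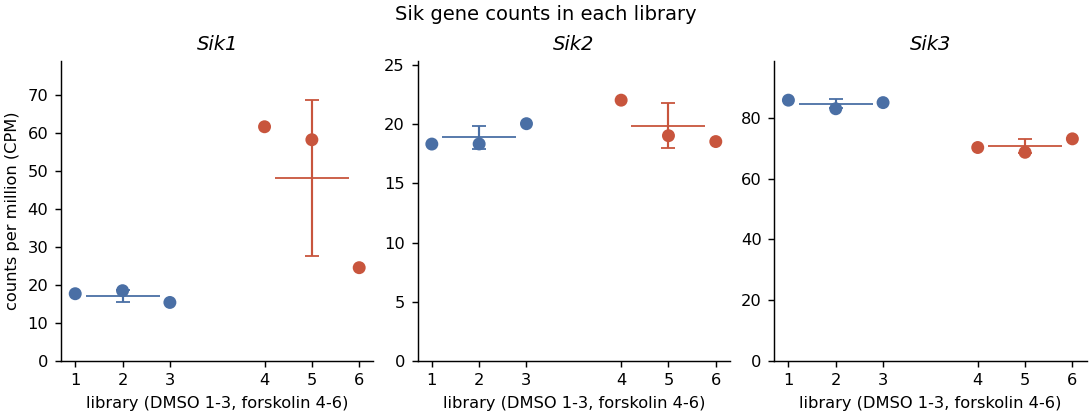
CPM (TMM-scaled) of Sik1, Sik2 and Sik3 in DMSO libraries 1 to 3 (blue) and forskolin libraries 4 to 6 (red); points are libraries, and horizontal lines with bars are group means ± SD (n = 3). Sik1 lay at 15.4 to 18.5 CPM with DMSO and at 24.5 to 61.7 CPM with forskolin, the Sik2 groups overlapped, and Sik3 was at 83.1 to 85.9 CPM with DMSO and 68.7 to 73.2 CPM with forskolin.

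The call for Sik1 depended on library 6 and on the test. Relative to the DMSO mean, Sik1 stood at 3.59 in library 4, 3.39 in library 5 and 1.43 in library 6. Without library 6 the edgeR log2 fold change was 1.79 (adjusted p = 0.00176). DESeq2 on all 6 libraries gave 1.50 ± 0.35 (SE; adjusted p = 5.59e-04), where 4.90% of genes were called higher. Limma-voom with library quality weights, which lets a library that departs from its group count for less, gave 1.72 (adjusted p = 0.00276), where 21.0% of genes were called higher, 20.9% lower and 41.9% in either direction. The sign was positive under each of these and every other alternative tried.

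Libraries 4 and 5, which held the highest Sik1 counts, also held the highest sums of microglia markers and of oligodendrocyte lineage markers (1139 and 1624 CPM, against 652 CPM in library 6), and their neuron marker sums were below every control. In library 6, 1 library, the microglia sum was 9.17 CPM, within the range of the DMSO libraries, but the oligodendrocyte lineage sum was below every control. Sik1 was at 24.5 CPM there, against 15.4 to 18.5 CPM in the DMSO libraries. The part of these marker differences in the Sik1 difference was not tested.

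**Figure D2:**
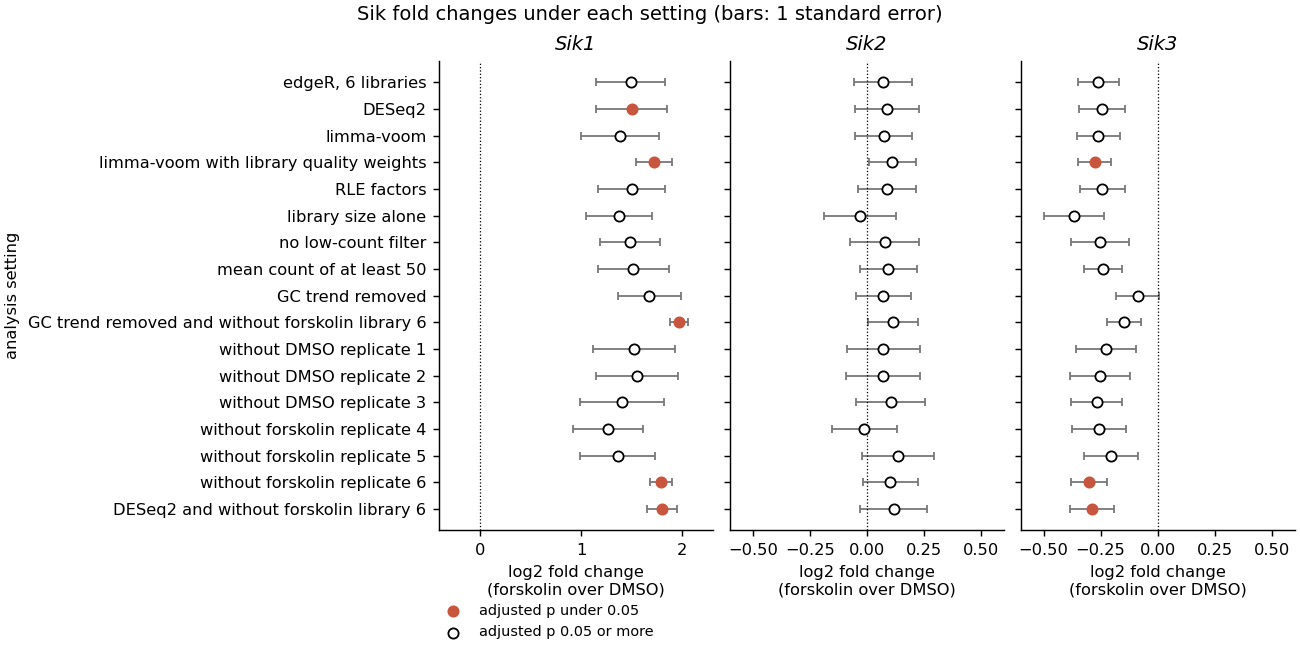
Log2 fold change of each Sik gene (forskolin over DMSO) under edgeR with 6 libraries and each alternative setting; bars are 1 standard error and red points passed an adjusted p-value of 0.05. Sik1 stayed between 1.27 and 1.96, Sik2 stayed near 0 with a negative sign under scaling by library size alone and without library 4, and Sik3 stayed negative.

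The authors' deposited table for the same comparison lists 132 genes, Sik1 among them. It is the fourth gene of the authors' deposited table, with a log2 fold change of 1.83, a standard error of 0.132 and an adjusted p-value of 2.15e-40. Sik2 and Sik3 are not in the authors' deposited table, which as deposited holds a selection of genes. DESeq2 run here without library 6 gave 1.80 ± 0.149 (SE; adjusted p = 4.55e-31) for Sik1, against a standard error of 0.345 with all 6 libraries. For Fos and Dusp1, unlike Sik1, the authors' log2 fold changes (2.44 and 2.47) were nearer to DESeq2 on 6 libraries (2.47 and 2.53). Without library 6, DESeq2 gave 2.71 for Fos and 2.72 for Dusp1. Which libraries entered the authors' test is not given in the sources used here.

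Sik2, which is abundant in adipose tissue and brain and acts on CRTC proteins, overlapped between the groups. Its counts were 587, 559 and 715 with DMSO and 1038, 648 and 621 with forskolin. In CPM these were 18.3, 18.3 and 20.1, and 22.0, 19.0 and 18.5. Library 4 was the highest of the 6, and libraries 5 and 6 lay within the DMSO range. The edgeR log2 fold change was 0.07 ± 0.13 (SE; adjusted p = 0.761), and its 95% interval ran from -0.23 to 0.38. With scaling by library size alone the sign turned, at -0.031, and without library 4 it was -0.010. Ppp2r1b, whose exons overlap those of Sik2, had 16.3, 14.1 and 14.2 CPM with DMSO and 20.1, 17.6 and 14.5 CPM with forskolin, also highest in library 4.

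Sik3, the member linked to sleep need in mice, had the most counts of the 3 in every library, and its forskolin values were lower by a small margin. It had 2751, 2532 and 3034 counts with DMSO and 3310, 2339 and 2450 counts with forskolin. After scaling these were 85.9, 83.1 and 85.1 CPM, and 70.3, 68.7 and 73.2 CPM. Every forskolin library lay below every DMSO library, as in 16.2% of all tested genes, and library 6 was here alongside libraries 4 and 5. Means were 84.7 ± 1.46 and 70.7 ± 2.25 CPM (SD, n = 3). The edgeR log2 fold change was -0.26 ± 0.09 (SE; 95% interval -0.48 to -0.04), with an unadjusted p-value of 0.0256 and an adjusted p-value of 0.176, which is not a call.

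The Sik3 value moved with the handling of GC content. Across tested genes, GC content and the edgeR log2 fold change had a Spearman rho of -0.51, a description over genes that share the same 6 libraries. The GC trend thus differed between the groups, so removing it (the GC correction) can also remove differences due to treatment. Technical and treatment parts of the trend cannot be told apart here. The longest Sik3 transcript has 54.3% GC and that of Sik1 55.0%, against a median of 49.5% over tested genes, while that of Sik2 has 49.2%. With each library's trend on GC content removed, the Sik3 log2 fold change was -0.09 (edgeR adjusted p = 0.662), that of Sik1 was 1.68 (adjusted p = 0.191) and that of Sik2 was 0.07 (adjusted p = 0.773). Without library 6, and with no GC correction, Sik3 was called lower (-0.30, edgeR adjusted p = 0.0312), where 17.1% of genes were. With both changes together it was -0.15 (edgeR adjusted p = 0.177), whereas Sik1 was 1.96 (adjusted p = 0.00107).

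Because levels can be compared between genes only per length, CPM values were divided by the longest transcript of each gene in kilobases. With DMSO, Sik3 stood at 13.5 ± 0.232 CPM per kilobase (SD, n = 3), Sik1 at 3.80 ± 0.356 and Sik2 at 3.52 ± 0.185. Sik3 was therefore first in all 3 DMSO libraries, while Sik1 was above Sik2 in 2 of 3 and their order did not exceed the spread. With forskolin, Sik3 stood at 11.3 ± 0.358 CPM per kilobase, Sik1 at 10.7 ± 4.54 and Sik2 at 3.70 ± 0.353. Sik1 was above Sik2 in all 3 forskolin libraries. It was above Sik3 in libraries 4 and 5, at 13.7 and 12.9 against 11.2 and 10.9 CPM per kilobase, and below it in library 6, at 5.43 against 11.6. These orders depend on the length used. With the mean length of protein-coding transcripts, Sik1 was below Sik3 in libraries 4 and 5 too, at 34.3 and 34.0% of the family sum against 52.9 and 54.4%. With that length Sik1 was also below Sik2 in all 3 DMSO libraries, at 11.5, 12.3 and 10.1% against 12.5, 12.7 and 13.8%. The summed level of the 3 genes was 20.8 ± 0.171 CPM per kilobase with DMSO, and 28.9, 27.4 and 20.5 in libraries 4, 5 and 6, so that the sum in library 6 was no higher than in the controls.

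**Figure D3:**
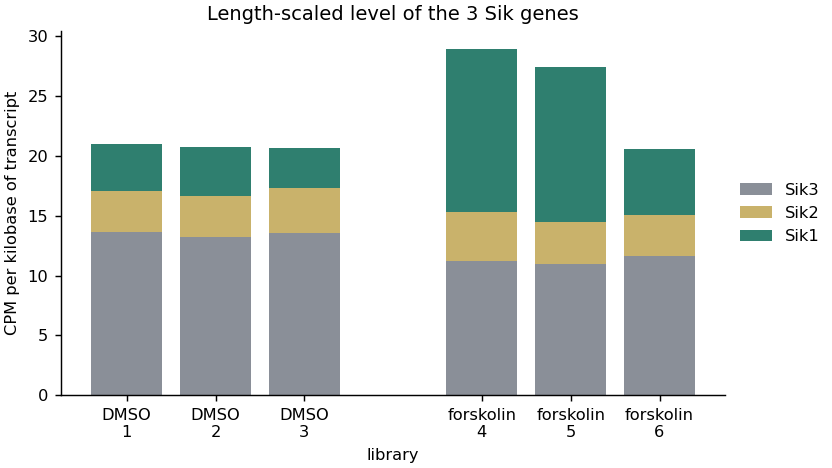
CPM per kilobase of the longest transcript for Sik3 (grey), Sik2 (yellow) and Sik1 (green), stacked in each library. Sik1 makes up 16.4 to 19.7% of each DMSO bar, 47.2 and 47.1% of the bars of forskolin libraries 4 and 5, and 26.5% of that of library 6.

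The balance within the family was different in the forskolin libraries. As a share of the summed length-scaled level, Sik1 made up 18.6, 19.7 and 16.4% with DMSO, against 47.2, 47.1 and 26.5% in libraries 4, 5 and 6. The means were 18.3 ± 1.67 and 40.2 ± 11.9% (SD, n = 3), and the groups did not overlap (exact two-sided permutation test, p = 0.1). With 3 libraries against 3 that test cannot go below 0.1, and so cannot reach 0.05. The share of Sik3 was 64.8 ± 0.890% with DMSO and 45.1 ± 10.1% with forskolin (exact permutation p = 0.1). That of Sik2 was 16.9 ± 0.983 and 14.7 ± 1.98% (exact permutation p = 0.3).

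Ratios of counts within a library need no library scaling, and they were used to compare the 3 responses with each other. The log2 ratio of Sik1 to Sik2 was -0.05, 0.01 and -0.38 with DMSO and 1.48, 1.61 and 0.40 with forskolin, a difference of 1.31. That of Sik1 to Sik3 was -2.28, -2.17 and -2.47 with DMSO and -0.19, -0.24 and -1.57 with forskolin, a difference of 1.64. That of Sik2 to Sik3 was -2.23, -2.18 and -2.08 with DMSO and -1.67, -1.85 and -1.98 with forskolin, a difference of 0.33. In each of the 3 ratios the groups did not overlap, and each exact two-sided permutation p-value was 0.1, the smallest possible, and 0.1 after adjustment over the 3 ratios. With the GC trend removed, the difference in the ratio of Sik2 to Sik3 was 0.16 and the groups overlapped (exact permutation p = 0.4).

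Genes whose values ran most like each member's were sought among 13445 other genes that passed the low-count filter and averaged 50 counts or more. The measure was the root mean square difference of mean-centred log2 CPM over the 6 libraries. The nearest to Sik1 were Tinf2, which encodes a shelterin subunit at telomeres (0.092), Ppp1r15a, which encodes the stress-induced phosphatase regulator GADD34 (0.162), and Ckap2, which encodes a cytoskeleton-associated protein (0.168). Tinf2 had 7.90, 8.53 and 7.52 CPM with DMSO and 27.5, 27.4 and 13.2 CPM with forskolin. As with Sik1, its library 6 lay between the controls and the other forskolin libraries. Its edgeR log2 fold change was 1.51 (adjusted p = 0.0655), beside 1.27 (0.0705) for Ppp1r15a and 1.36 (0.0875) for Ckap2. The nearest to Sik2 were Rfwd3 (0.032), Wdr20 (0.032) and Ankrd40 (0.034). The nearest to Sik3 were the tubulin gene Tubb2b (0.025), Cmc2 (0.029) and 3010026O09Rik (0.030). These genes were picked for likeness, so their values are descriptions.

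Upstream of the kinases, genes of the LKB1 complex gave no call by edgeR or DESeq2 on 6 libraries, and 1 had an unadjusted edgeR p-value under 0.05, as did 22.3% of all tested genes. Without library 6 edgeR called Cab39l higher (0.38, adjusted p = 0.0391) and Stradb lower (-0.52, adjusted p = 0.0140), where 16.5% of all genes were called higher and 17.1% lower. Stradb was at 30.7 CPM in library 6, above its controls at 25.7 to 26.5 CPM. This list has 5 genes: Stk11, which encodes LKB1 itself, the pseudokinase partners Strada and Stradb, and the scaffolds Cab39 and Cab39l. Their median log2 fold change was -0.18, against 0.021 over all tested genes, but it was -0.023 without library 6 and 0.017 after the GC correction. Stk11 had 46.8, 40.0 and 35.3 CPM with DMSO and 41.8, 39.2 and 19.8 CPM with forskolin, the low value being that of library 6 (edgeR log2 fold change -0.28, adjusted p = 0.582). Without library 6 the value was -0.023 (edgeR adjusted p = 0.905). Its sign turned with the GC trend removed, at 0.16. Cab39l had the highest value of the list, 0.33 (edgeR adjusted p = 0.184), or 0.017 after the GC correction.

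Of 11 other kinases that LKB1 activates, edgeR called 0 on 6 libraries. Of these, 6 had an unadjusted p-value under 0.05, as did 22.3% of all tested genes, and the median log2 fold change was -0.36, or -0.20 after the GC correction. The groups did not overlap in 6 of them, with 5 lower and 1 higher, beside 16.2 and 10.3% of all tested genes. DESeq2 called 0 higher and 4 lower (6.03% of all genes were called lower by it), and edgeR without library 6 called 1 higher and 6 lower, where 16.5% of all genes were called higher and 17.1% lower. Mark4, a microtubule affinity-regulating kinase, had the lowest value, -0.77 (edgeR adjusted p = 0.0709), or -0.21 after the GC correction. Nuak2 had the highest, 0.82 (adjusted p = 0.427), with 29.5, 27.9 and 6.03 CPM in libraries 4, 5 and 6 and 17.6, 9.68 and 8.86 CPM in the controls. Library 6 was below every control for Nuak2, so it did not share the pattern of Sik1. Without library 6, Nuak2 was at 1.24 (edgeR adjusted p = 0.0219) and Mark4 at -0.81 (adjusted p = 0.0153).

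PKA, which acts on the salt-inducible kinases, is a complex of catalytic and regulatory subunits. None of its 6 genes was called by edgeR or DESeq2 on 6 libraries, 0 had an unadjusted edgeR p-value under 0.05, and their median log2 fold change was -0.15, or -0.31 without library 6. The lowest was Prkar1b, a neuronal regulatory subunit, at -0.59 (edgeR adjusted p = 0.235), and the highest was Prkar2b at 0.11 (adjusted p = 0.783), whose sign turned after the GC correction (-0.063). Of 7 genes for 14-3-3 proteins edgeR called 0, with 1 under 0.05 before adjustment beside 22.3% of all tested genes. DESeq2 called 1 of them lower, where 6.03% of all genes were called lower. The median of the 14-3-3 list was -0.37, or -0.47 without library 6 and -0.39 after the GC correction. Its lowest gene was Ywhag at -0.62 (edgeR adjusted p = 0.113). The highest was Ywhab at 0.03 (edgeR adjusted p = 0.951), whose sign turned with library size alone (-0.065). Calcineurin, which dephosphorylates CRTC proteins after calcium entry, has 4 genes on the list, with a median of -0.048, no call by either tool and 0 genes at an unadjusted edgeR p-value under 0.05. That median was -0.29 without library 6 and -0.30 after the GC correction. On 6 libraries the 4 genes ran from -0.24 for Ppp3r1 to 0.04 for Ppp3cb, whose sign turned with library size alone (-0.049) and after the GC correction (-0.35). Without library 6, edgeR called 3 PKA genes, 4 genes for 14-3-3 proteins and 2 calcineurin genes lower and 0 higher, where 17.1% of all genes were called lower and 16.5% higher. Among the named genes these were Prkar1b (-0.94), Ywhag (-0.78) and Ppp3r1 (-0.57).

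**Figure D4:**
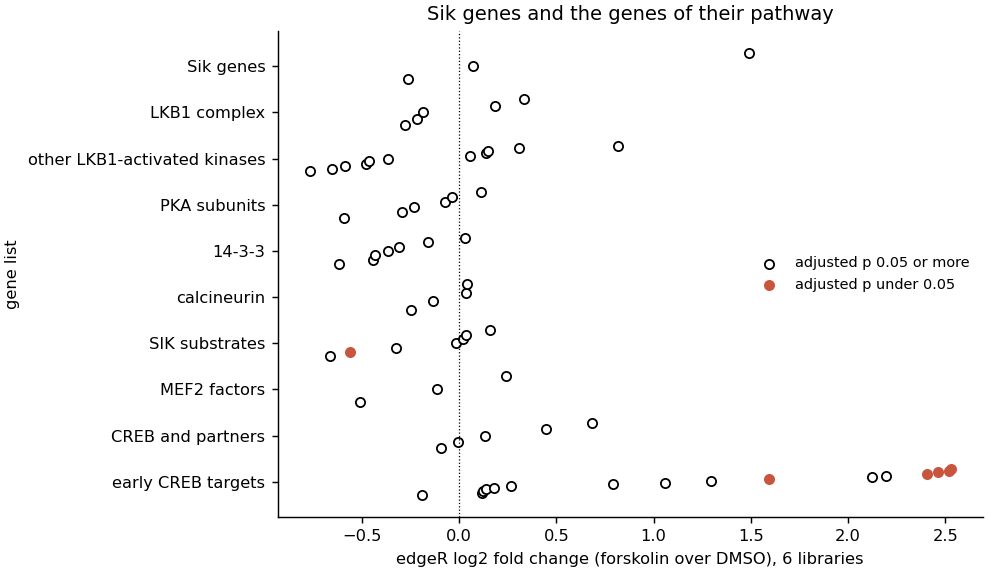
EdgeR log2 fold changes (forskolin over DMSO, 6 libraries) of the 3 Sik genes and of the tested genes in 9 lists of their pathway, 1 point per gene; red points had an adjusted p-value under 0.05. The called genes were Crtc1 at -0.56 and 5 early CREB targets between 1.59 and 2.53, and Sik1 at 1.49 lay among the early CREB targets in size.

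Among the kinases' substrates, Crtc1, the CRTC coactivator most abundant in neurons, was called lower. It had 51.6, 54.0 and 54.8 CPM with DMSO and 36.4, 38.3 and 34.2 CPM with forskolin. All forskolin libraries were below all controls, as in 16.2% of all tested genes. Its edgeR log2 fold change was -0.56 ± 0.10 (SE; adjusted p = 0.0482). The call did not hold under 10 of 16 alternatives. In 9 of these the value stayed between -0.56 and -0.53, and with the GC correction it was -0.29 (edgeR adjusted p = 0.359). It held without library 6 (-0.53, edgeR adjusted p = 0.00762), where 17.1% of all genes were called lower. With DESeq2 it held too (-0.54, adjusted p = 5.13e-05), where 6.03% were called lower. It also held with the GC correction and without library 6 (-0.31, edgeR adjusted p = 0.0471), where 2723 of 16941 genes were called lower. Crtc2 (0.02, edgeR adjusted p = 0.952) and Crtc3 (0.04, adjusted p = 0.942) overlapped between the groups. Their signs turned with library size alone, at -0.085 and -0.074. Crtc3 was at 0.32 after the GC correction (edgeR adjusted p = 0.514). With that correction and without library 6 it was called at 0.51 (edgeR adjusted p = 0.0131), where 2707 of 16941 genes were called higher.

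The class IIa deacetylases Hdac4 and Hdac5 had every forskolin library below every control, as did 16.2% of all tested genes, and neither passed edgeR's test on 6 libraries. Hdac5 passed with DESeq2 on 6 libraries (adjusted p = 0.00771), where 6.03% of all genes were called lower. Both passed edgeR without library 6, at -0.53 for Hdac5 (adjusted p = 0.00945) and -0.35 for Hdac4 (adjusted p = 0.0305). In that setting 17.1% of all genes were called lower. Hdac5 had 120, 124 and 123 CPM with DMSO and 91.4, 80.3 and 60.0 CPM with forskolin (log2 fold change -0.66, edgeR adjusted p = 0.105), and its value was -0.20 after the GC correction. Hdac4 had 98.5, 109 and 103 CPM with DMSO and 85.6, 78.2 and 83.6 CPM with forskolin (log2 fold change -0.33, edgeR adjusted p = 0.146). Hdac7 had the highest value of the 7 substrate genes, 0.16 (edgeR adjusted p = 0.789). It was at 0.64 after the GC correction (edgeR adjusted p = 0.397) and was called at 0.83 with that correction and without library 6 (adjusted p = 0.0140), where 5430 of 16941 genes were called. Over these 7 genes edgeR called 0 higher and 1 lower, where 1.34% of all genes were called lower. The median of the list was -0.016, or -0.25 without library 6 and -0.16 after the GC correction. Of the MEF2 factors, which class IIa deacetylases repress, Mef2d had 86.1, 101 and 94.8 CPM with DMSO and 60.0, 61.1 and 76.7 CPM with forskolin (-0.51, edgeR adjusted p = 0.121), or -0.30 after the GC correction. Mef2a was at 0.24 (edgeR adjusted p = 0.487), turning to -0.049 after the GC correction, and Mef2b was under the count filter. EdgeR called 0 of the 3 tested MEF2 genes on 6 libraries, with 1 under 0.05 before adjustment, beside 22.3% of all tested genes. Both DESeq2 on 6 libraries and edgeR without library 6 each called 1 lower, Mef2d (-0.49 and -0.65), where they called 6.03 and 17.1% of all genes lower.

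CREB itself and its partners gave 0 edgeR calls among 5 genes on 6 libraries. Their median was 0.13, or 0.29 without library 6 and 0.020 after the GC correction. Crem, which encodes CREB-related factors that include the inducible repressor ICER, had 7.03, 7.12 and 7.46 CPM with DMSO and 12.2, 12.3 and 10.1 CPM with forskolin. Every forskolin library was above every control, as in 10.3% of all tested genes (edgeR log2 fold change 0.68, adjusted p = 0.0934). After the GC correction Crem was at 0.44 (edgeR adjusted p = 0.356). Without library 6 it was called higher (0.75, edgeR adjusted p = 0.00952), where 16.5% of all genes were. DESeq2 on 6 libraries also called it higher. It was the 1 gene of the list under 0.05 before adjustment, as were 22.3% of all tested genes, and the 1 that DESeq2 called, where 4.90% of all genes were called higher. The lowest of the list was Crebbp, the acetyltransferase coactivator CBP, at -0.09 (edgeR adjusted p = 0.647).

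Sik1 was compared last with 16 other early CREB target genes. This list was chosen with earlier results of these data known, so counts over it are descriptions. Of the 16 genes, edgeR called 5 higher and 0 lower, where 0.172% of all genes were called higher. Their median log2 fold change was 1.18. The 5 were Rgs2, a regulator of G protein signalling (1.59, adjusted p = 0.0188), the phosphatase gene Dusp1 (2.52, 0.0276), the orphan nuclear receptor gene Nr4a2 (2.53, 0.0297), the antiproliferative gene Btg2 (2.40, 0.0314) and the AP-1 subunit gene Fos (2.46, 0.0375). Nr4a1 was at 2.20 (edgeR adjusted p = 0.0652). The lowest was the phosphodiesterase gene Pde4d at -0.19 (adjusted p = 0.712). Without library 6 edgeR called 11 higher and 1 lower, where 16.5% of all genes were called higher and 17.1% lower. Promoters of 15 of the 16 genes had a RefSeq entry. Of these, 14 held TGACG or its reverse complement (20.8% of all promoters), 4 held TGACGTC (3.21%) and 2 held TGACGTCA (1.79%). The genes were listed as CREB targets, so these motif counts are descriptions too.

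Forskolin libraries also differed from each other in these genes. Library 6 was the lowest forskolin library for Sik1 and for 12 of the 16 early targets. On the log2 scale relative to the DMSO mean, Sik1 stood at 1.85 and 1.76 in libraries 4 and 5 and at 0.52 in library 6. Rgs2 stood at 1.71, 1.59 and 1.46, so that it was of similar size to Sik1 in libraries 4 and 5 and varied less between forskolin libraries. Fos stood at 2.66, 2.77 and 1.76, and Nr4a1 at 2.48, 2.50 and 1.33. In library 6 Sik1 stood lower than Fos, Nr4a1, Rgs2, Nr4a2, Dusp1 and Btg2, but 9 of the 16 early targets stood lower still relative to their DMSO mean. The difference between Sik1 and these genes was not tested.

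**Figure D5:**
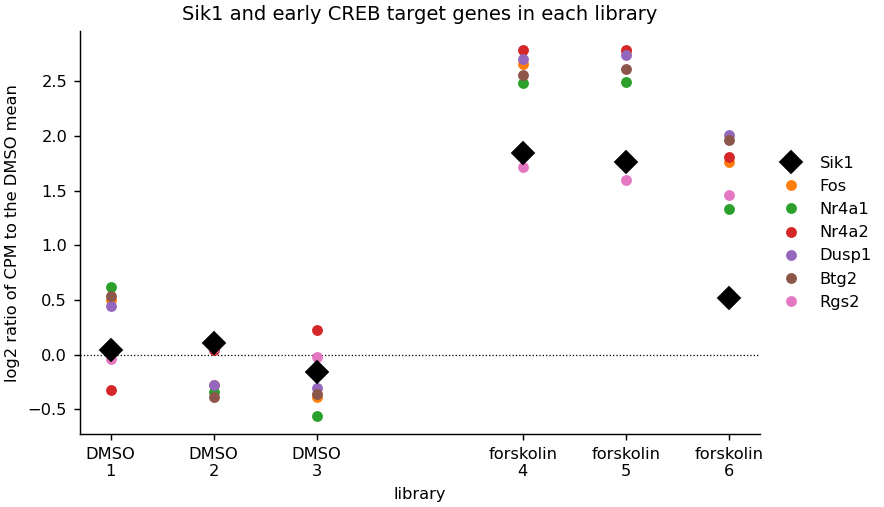
Log2 ratio of CPM to the DMSO mean for Sik1 (black diamonds) and 6 early CREB target genes (coloured circles) in each library. The 6 are the 5 that edgeR called higher on all 6 libraries, and Nr4a1. Sik1 lies at 1.85 and 1.76 in forskolin libraries 4 and 5, near Rgs2, and at 0.52 in library 6, where the other 6 genes lie between 1.33 and 2.01. The called genes were picked with library 6 included, so their place above Sik1 there is not a test. Of all 16 early targets, 9 stood lower than Sik1 in library 6.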

How the data were processed

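Per the labels' protocols, the 3 DMSO and 3 forskolin samples gave total RNA by Trizol extraction, sequenced as Illumina libraries. The authors deposited counts, whole numbers per gene symbol. Salmon, DESeq and the build GRCm38 are named in the submitters' processing notes; versions, annotation and strand setting are not given in the sources used here. The authors' deposited results table has columns, by their headers, for each gene's normalised mean count (a signal), log2 fold changes and standard errors, a test statistic (score) and p-values.

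Low counts were filtered by filterByExpr of edgeR (minimum count 10), and the rest scaled by TMM and tested with glmQLFit and glmQLFTest over all 16233 genes (R 4.3.3, edgeR 4.0.16, limma 3.58.1, DESeq2 1.42.0). P-values were adjusted by Benjamini-Hochberg at 0.05. Standard errors came from the fold change and the square root of F. Ratios used a pseudocount of 0.5, and log2 CPM a prior count of 2. GC content and lengths came from the longest GENCODE M21 transcript of each symbol, with a GC value for 97.1% of tested genes; the GC trend was a lowess fit per library. The fits were tested on simulated data.

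The members and gene lists were chosen with earlier results of these data known. Named were the members, 9 fixed genes (Stk11, Crtc1, Crtc2, Crtc3, Hdac4, Hdac5, Crem, Fos and Nr4a1), every called gene and the highest and lowest of each list, and the 3 genes nearest to each member. Ppp2r1b, Rbfox3 and Stradb fell outside this rule and were named after their values were seen. Strada, Cab39 and Mef2b, also outside it, are mentioned only as list members, without fold changes. Alternatives were other tests, scalings and filters, the GC correction and leaving out each library.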

Additional observations from a re-analysis of the deposited data

How the results depend on the processing

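No paired analysis was possible because no library number occurs in both groups. Sik1 passed 0.05 under 5 of 16 alternatives: DESeq2 (log2 fold change 1.50), limma with quality weights (1.72), edgeR without library 6 (1.79), the GC correction without library 6 (1.96), and DESeq2 without library 6 (1.80), the last chosen after seeing the data. Over all alternatives its adjusted p ran from 4.55e-31 to 0.368, and leaving out 1 library gave 1.27 to 1.79. Sik2 turned sign with library size alone (-0.031) and without library 4 (-0.010); leaving out 1 library gave -0.010 to 0.14. Sik3 passed with quality weights (-0.28), without library 6 (-0.30) and with DESeq2 without library 6 (-0.29); leaving out 1 library gave -0.30 to -0.21. The 3 ratios and the Sik1 share kept their direction under all 8 alternatives each. The number of genes called was 245, and 1775 with DESeq2, 6795 with quality weights, 137 with RLE factors, 0 with the GC correction (1947 at an unadjusted p under 0.05), 5430 with the GC correction without library 6, and 6239 with DESeq2 without library 6; leaving out 1 library gave 0 to 5698. Of the 245 calls 28 were higher; with DESeq2 796 of 1775, with quality weights 3403 of 6795, and with RLE factors 24 of 137 were. The median over all genes was 0.021, and -0.085 with library size alone.

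Signs of other named genes turned as follows, none of them called by edgeR on 6 libraries. With library size alone: Crtc2 -0.085, Crtc3 -0.074, Ppp3cb -0.049, Ywhab -0.065, Ankrd40 -0.060 and Wdr20 -0.065. With limma-voom: Crtc3 -0.019. With quality weights: Ppp3cb -0.18 and Ywhab -0.21. With the GC correction: Mef2a -0.049, Ppp3cb -0.35, Prkar2b -0.063, Stk11 0.16, Ywhab -0.039 and Wdr20 -0.064. With the GC correction without library 6: Mef2a -0.039, Ppp3cb -0.73, Prkar2b -0.19, Stk11 0.35, Ywhab -0.32 and Wdr20 -0.037, of which Ppp3cb (adjusted p = 0.00785) and Stk11 (adjusted p = 0.0430) passed edgeR's test with the turned sign. With DESeq2 without library 6: Ppp3cb -0.23 and Ywhab -0.25. Leaving out 1 library gave -0.031 to 0.075 for Crtc2, -0.21 to 0.27 for Crtc3, -0.0010 to 0.42 for Hdac7, -0.58 to 0.0083 for Pde4d, -0.24 to 0.20 for Ppp3cb, -0.025 to 0.33 for Prkar2b, -0.26 to 0.20 for Ywhab, -0.0067 to 0.089 for Ankrd40 and -0.037 to 0.11 for Wdr20. The cause was not tested for any of these. With forskolin, Sik1 varied between libraries by far more than its counting error of 1.86 to 3.49%, whereas the DMSO values of Sik3 varied by no more than their counting error of 1.82 to 1.99%.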
